A study of Mus musculus with 2 samples.

Results

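The *Fabp7*-high cells described here were 554 of the 3728 GFP+ cells sorted from *LHX4::GFP* mouse retinas, which is 14.9% (95% exact binomial interval 13.7 to 16%), out of 8173 cells in both sort gates. They were selected on their own counts, as cells with at least 3 raw UMIs of *Fabp7* and at most 1 UMI of the stress-response genes *Chac1*, *Trib3* and *Slc7a3* together. A UMI is a molecular tag that counts 1 captured mRNA molecule. They were compared with the 2112 GFP+ cells that had no *Fabp7* UMI under the same stress limit (56.7%, 55.0 to 58.3%). A further 933 GFP+ cells with 1 or 2 *Fabp7* UMIs belonged to neither group, and 129 cells were left out by the stress limit, 9 of them with 3 or more *Fabp7* UMIs. All deposited GFP+ cells had a mitochondrial fraction under 0.25.

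The embryos were heterozygous for the BAC transgene Tg(Lhx4::EGFP)KN199Gsat/Mmucd, in which sequences around *Lhx4* drive GFP, so that the gate holds cells with an active transgene rather than cells chosen by a cone protein. GFP-expressing retinas of E14.5 embryos from 2 litters were pooled into 1 suspension, and the GFP+ and GFP− cells of that suspension were each loaded as 1 droplet library. The GFP− library, with 4445 cells, holds the progenitors and other neurons of the same retinas. With 1 library per gate there is no replicate, so no p-value or standard error is given. The intervals throughout are 95% exact intervals that cover counting error only, and the cells are members of 1 library and not replicates.

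FABP7, the brain-type fatty acid-binding protein, is a small cytoplasmic carrier of long-chain polyunsaturated fatty acids. It is best known as a marker of radial glia in the developing brain, and it has also been used to mark cone photoreceptors. Cones are born early in retinal development, and at this embryonic stage most have left the cell cycle without having made visual pigment or an outer segment. They first express fate regulators such as *Otx2* and *Crx*, and later the genes of the phototransduction cascade.

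*Fabp7* lies on chromosome 10 of GRCm38 from 57784881 to 57788450 on the plus strand and is protein-coding. The Fabp7-high cells held 5815 of the 7119 *Fabp7* UMIs of the GFP+ library (81.7%), and single cells ranged from 3 to 136 UMIs, with a median of 6 and quartiles of 4 and 12. The counts fell off without a gap at the threshold. The 125 cells with exactly 3 UMIs had a median of 4292 UMIs over all genes, and the 262 cells with exactly 2 had 4010. These values chose the members and are given as a description.

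**Figure D1:**
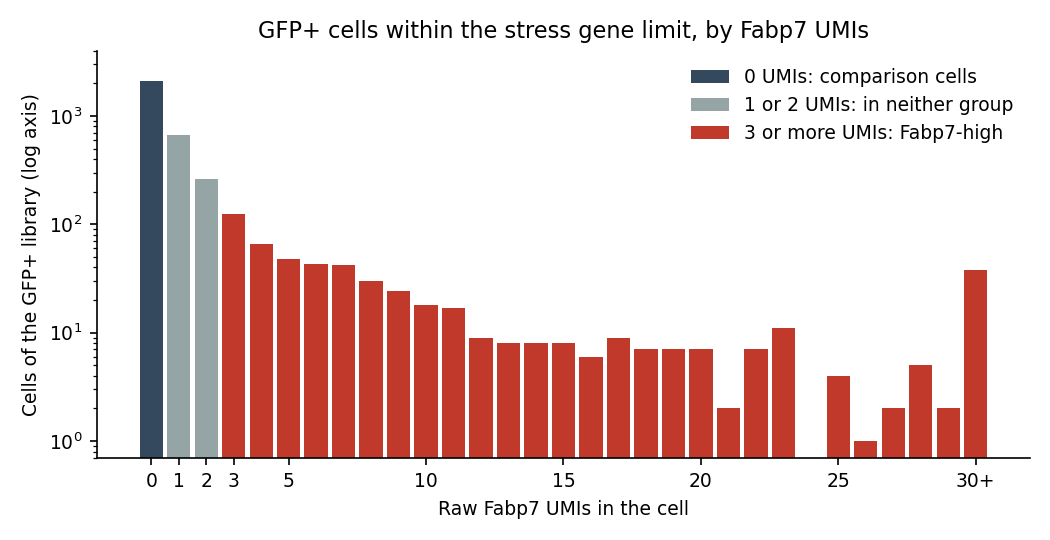
Number of GFP+ cells (log axis) by raw *Fabp7* UMIs in the cell, for cells within the stress limit, with cells of 30 or more UMIs in the last bar. The 554 red cells with 3 or more UMIs continue a falling distribution from the 2112 cells at 0, with no second peak near the threshold.

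The promoters of *Fabp7* and of *Abca4*, one of the genes that differed most, are shown because they let the reader see which letters of photoreceptor and *Fabp7* regulators stand at each start site. Each window runs from 250 bases before to 50 bases after the RefSeq start on GRCm38.p6, at chr10:57784673-57784972 and chr3:122044210-122044509, both on the plus strand. Capitals mark matches to TAATCC (core of CRX and OTX2 sites), TGGGAA (RBPJ), ATGCAAAT (POU octamer) or TTGGC (one arm of an NFI site), searched on both strands.
Fabp7: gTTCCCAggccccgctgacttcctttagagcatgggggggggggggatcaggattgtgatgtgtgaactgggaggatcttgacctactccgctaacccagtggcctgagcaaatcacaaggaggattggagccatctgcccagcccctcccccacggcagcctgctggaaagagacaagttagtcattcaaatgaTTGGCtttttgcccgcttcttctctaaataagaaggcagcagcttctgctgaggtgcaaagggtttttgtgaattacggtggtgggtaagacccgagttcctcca
Abca4: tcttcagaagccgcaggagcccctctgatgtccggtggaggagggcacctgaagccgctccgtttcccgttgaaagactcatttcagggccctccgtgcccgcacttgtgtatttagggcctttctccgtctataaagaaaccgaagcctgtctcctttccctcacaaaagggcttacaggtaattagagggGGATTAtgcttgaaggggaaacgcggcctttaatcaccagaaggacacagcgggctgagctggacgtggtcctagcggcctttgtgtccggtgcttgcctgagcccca
The *Fabp7* window held TGGGAA on the minus strand, which 25.6% of 32851 RefSeq promoters hold, and TTGGC, which 46.7% hold. The *Abca4* window held TAATCC on the minus strand, as do 7.06% of all promoters, and the *Fabp7* window did not hold these letters. The full palindromic NFI site, with both arms (0.0365% of promoters), and the octamer (1.74%) were in neither. A match is a description of the letters and not a bound site.

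The cone identity of the gate held for the Fabp7-high cells by the markers fixed for it. Without thinning, 98% (96.5 to 99.0%) of the Fabp7-high cells had UMIs of at least 4 of 12 cone markers. Of the comparison cells 97.5% (96.7 to 98.1%) did, with a median of 7 markers in both. The 11 Fabp7-high cells below that number had a median of 5865 UMIs and none had a UMI of 6 cycling genes, whereas the 53 comparison cells below it had a median of 7780 UMIs and 56.6% of them had one. The late cone marker *Pde6h* had no UMI in either group, where 3 UMIs would be 1.03 CPM in the Fabp7-high cells. CPM here is UMIs summed over the cells of a group, per 1000000 UMIs of that group.

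The Fabp7-high cells were deeper than the comparison cells, with a median of 4908 against 3734.5 UMIs and of 2118.5 against 1876 genes per cell, as a threshold on raw UMIs favours. Their summed depth was 2918825 UMIs against 8554390. The median mitochondrial share was 2.67 against 2.44%, and ribosomal protein genes took 19.8 against 17.7% of the UMIs. Both groups held cells of both sexes, with an *Xist* UMI in 34.3% (30.3 to 38.4%) of the Fabp7-high and 34.6% (32.6 to 36.7%) of the comparison cells. A UMI of a Y-linked gene was found in 46.6% (42.4 to 50.8%) and 44.4% (42.2 to 46.5%), and of a cycling gene in 18.2% (15.1 to 21.7%) and 17.4% (15.8 to 19.1%). These shares were taken at the unequal depths of the groups, so they do not measure equal proportions. Between the GFP+ and GFP− libraries 20 cell barcodes were shared, 4 of them in Fabp7-high cells. Because depth moved with the grouping, the comparison is also given for cells of like depth, those with 4000 to 6000 UMIs and at least 4 cone markers, which left 293 Fabp7-high cells (median 4771 UMIs) and 642 comparison cells (median 4433 UMIs).

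Among 6298 genes with a mean of at least 20 CPM over both groups, 138 (2.19%) were at least 1.5-fold higher in the Fabp7-high cells and 344 (5.46%) at least 1.5-fold lower, with a median log2 ratio of -0.10. Scaled by TMM factors, which set the bulk of genes equal, the counts were 195 higher and 236 lower, so that 45.2% rather than 28.6% of the called genes were higher, and the median log2 ratio was 0.01. Of the 138 higher genes all 138 were on the same side of 1 in the cells of like depth, and 117 had an interval above 1 there. Of the 344 lower genes 339 were on the same side and 271 had an interval below 1. Over all 6290 genes compared at like depth, 155 were 1.5-fold higher and 405 lower. Genes with a mean of at least 50 CPM are named here, among them the higher *Atoh7*, *Abca4*, *Tbx2* and *Btg1* and the lower *Slc17a6*, *Elavl2*, *Stx3* and *Pcdh15*.

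**Figure D2:**
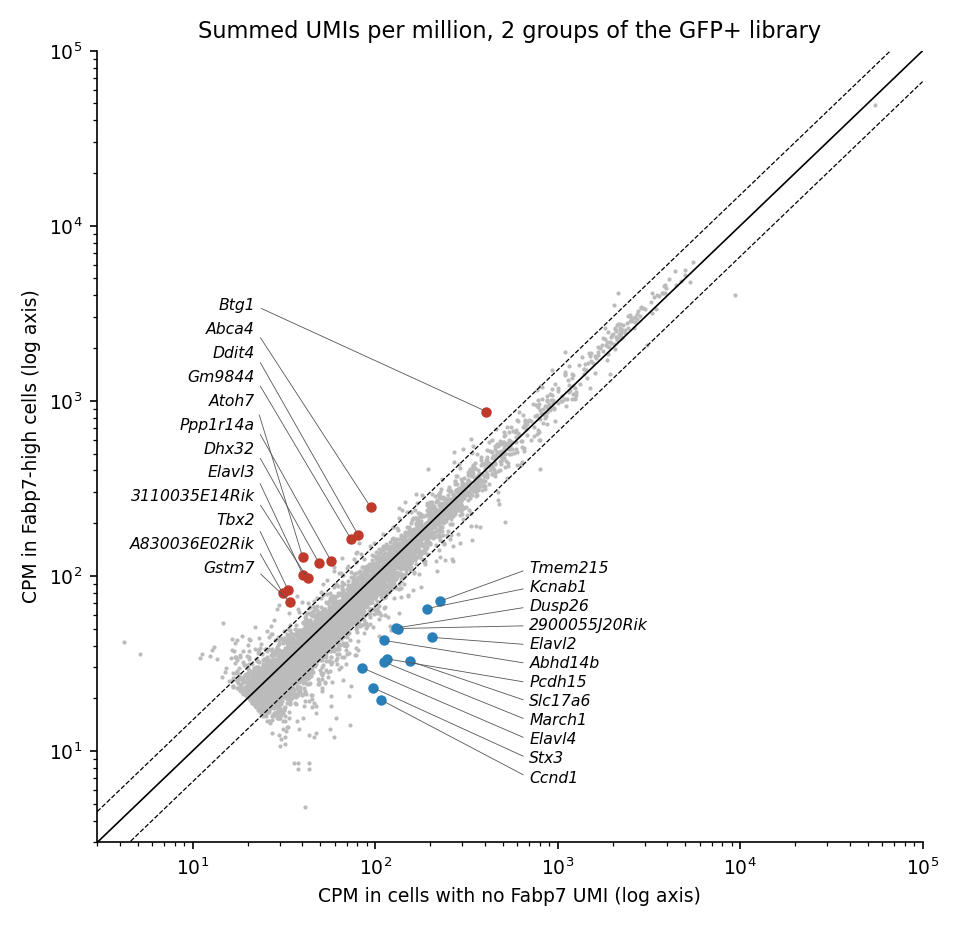
CPM of each of the tested genes in Fabp7-high cells (vertical, log axis) against cells with no *Fabp7* UMI (horizontal, log axis), 1 point per gene, without the genes of the selection. The solid line marks equal levels and the dashed lines a 1.5-fold difference. The 12 genes with the highest ratio (red) and the 12 with the lowest (blue) among genes of at least 50 CPM are named.

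*Atoh7*, the basic helix-loop-helix factor that newborn retinal neurons express around their last division and that ganglion cells need, had the highest ratio of the genes with a mean of at least 50 CPM. It was at 128 CPM (115 to 141) in the Fabp7-high and 40.1 CPM (36.0 to 44.6) in the comparison cells, a ratio of 3.19 (2.75 to 3.70). In the cells of like depth the ratio was 2.64 (2.09 to 3.35), and it was 1.85 with all cells of at least 4 cone markers and comparison cells weighted to the depth of the Fabp7-high cells. After each cell was thinned to 3000 UMIs, *Atoh7* had a UMI in 28.3% (24.5 to 32.2%) of the Fabp7-high, 8.69% (7.45 to 10.1%) of the comparison and 3.94% (3.17 to 4.84%) of GFP− progenitor cells. That last group, 2213 GFP− cells with at least 3 UMIs of progenitor genes that include *Sfrp2* and none of *Otx2*, *Crx* and *Gngt2* (median 10093 UMIs), is shown as a cell type that should lack cone genes, but it is from the other library and does not measure the stray RNA of the GFP+ droplets. Thinning left out 9 Fabp7-high, 248 comparison and 5 progenitor cells, and the unthinned shares were 41.2, 11.8 and 9.58%.

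*Abca4*, the retinoid transporter of photoreceptor outer segments, was at 247 CPM (230 to 266) in the Fabp7-high and 94.5 CPM (88.1 to 101) in the comparison cells. The ratio was 2.62 (2.37 to 2.90), and 2.38 (2.05 to 2.77) at like depth. A thinned *Abca4* UMI was found in 42.6% (38.4 to 46.8%), 20.3% (18.5 to 22.2%) and 0.272% (0.0998 to 0.591%) of Fabp7-high, comparison and progenitor cells, and an unthinned one in 55.1, 24.7 and 1.63%. *Tbx2*, a T-box factor of the dorsal retina, was at 83.3 against 33.3 CPM, a ratio of 2.50 (2.1 to 2.98) that was 3.67 (2.77 to 4.90) at like depth. *Btg1*, an antiproliferative gene, was at 869 against 407 CPM, a ratio of 2.13 (2.03 to 2.25), and 2.06 (1.91 to 2.22) at like depth.

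The other 8 of the 12 highest genes had ratios from 2.09 to 2.55. *Elavl3*, a neuronal RNA-binding protein, was at 102 against 40.2 CPM (2.53, 2.16 to 2.96). *3110035E14Rik*, listed by RefSeq as *Vxn*, a neurogenesis gene, was at 97.0 against 42.7 CPM (2.27, 1.94 to 2.66). *Ddit4*, a stress-inducible inhibitor of mTORC1, was at 170 against 81.0 CPM (2.1, 1.87 to 2.36). *Dhx32*, of the RNA helicase family, had a ratio of 2.40, *Ppp1r14a*, a phosphatase inhibitor, 2.12, and *Gstm7*, a glutathione transferase, 2.09. *A830036E02Rik*, annotated as an antisense transcript, had 2.55. *Gm9844* had 2.18, but 73.8% of the 31-base stretches of its transcript also occur in *Tmsb10*, so its UMIs are uncertain. With comparison cells weighted to the depth of the Fabp7-high cells, *Elavl3* had a log2 ratio of 0.58, just under 1.5-fold, and the other 11 stayed past that fold.

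Among the 12 lowest genes, *Slc17a6*, the vesicular glutamate transporter VGLUT2, was at 32.5 CPM (26.3 to 39.8) in the Fabp7-high and 155 CPM (147 to 164) in the comparison cells, a ratio of 0.210 (0.169 to 0.259) that was 0.113 (0.0753 to 0.163) at like depth. A thinned *Slc17a6* UMI was found in 6.06% (4.20 to 8.4%) of Fabp7-high and 32.7% (30.5 to 34.9%) of comparison cells, beside 0.181% of the progenitors. The unthinned shares were 9.21, 37.1 and 1.40%. *Stx3*, the syntaxin of photoreceptor ribbon synapses, was at 23.0 against 97.5 CPM (0.235, 0.181 to 0.302), and *Pcdh15*, a cadherin of photoreceptors and hair cells, at 33.6 against 116 CPM (0.290, 0.233 to 0.357). The RNA-binding genes *Elavl2* (0.217, 0.181 to 0.260) and *Elavl4* (0.350, 0.277 to 0.438) were lower, opposite in direction to *Elavl3* of the same family. *March1*, *Tmem215*, *Kcnab1*, *2900055J20Rik*, *Abhd14b* and *Dusp26* had ratios from 0.288 to 0.386. Each of these 11 genes had an interval below 1 at like depth as well.

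*Ccnd1*, cyclin D1 of dividing progenitors, was the lowest of the named genes, at 19.5 against 108 CPM (0.181, 0.136 to 0.236). The 924 *Ccnd1* UMIs of the comparison cells lay in 114 of 2112 cells, so most cells had no part in this ratio. The counting interval does not cover such clumping. A thinned *Ccnd1* UMI was found in 2.75% (1.55 to 4.5%) of Fabp7-high and 4.83% (3.9 to 5.9%) of comparison cells. At like depth and with at least 4 cone markers it was at 9.11 against 11.2 CPM, a ratio of 0.811 (0.392 to 1.58). With only the limit of 4 cone markers, and comparison cells weighted to the depth of the Fabp7-high cells, the ratio was 0.190.

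**Figure D3:**
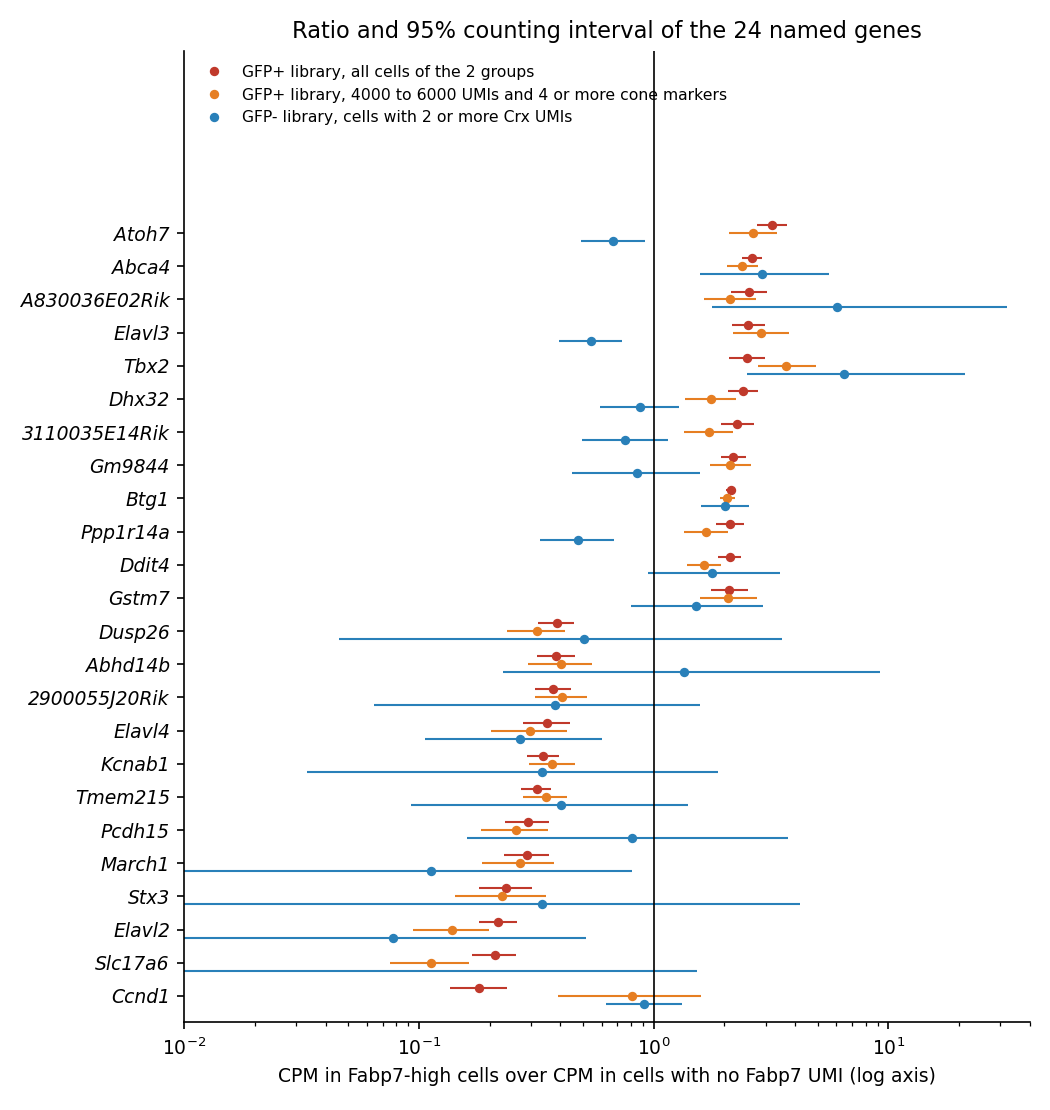
Ratio of CPM in Fabp7-high cells to CPM in cells with no *Fabp7* UMI (log axis), with 95% counting interval, for the 24 named genes. Red is all cells of both groups in the GFP+ library, orange its cells of 4000 to 6000 UMIs with 4 or more cone markers, and blue the *Crx*-positive cells of the GFP− library. Red and orange lie on the same side of 1 for all 24 genes, with *Ccnd1* near 1 in orange, and in blue *Atoh7*, *Elavl3* and *Ppp1r14a* have whole intervals below 1.

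Levels of several named genes were graded over the *Fabp7* count of the cell. The bins are cut on the counts that chose the members, and these genes were named for their ratio between the groups. Their direction from the bin of 0 to the upper bins is therefore given by that choice. The bins of 1 and 2 UMIs were outside both groups. Cells were placed in bins of 0, 1, 2, 3 to 5, 6 to 11 and 12 or more *Fabp7* UMIs, holding 2112, 671, 262, 239, 174 and 141 cells with medians of 3734.5, 3831, 4010, 4460, 5051.5 and 5652 UMIs, so depth was higher in the upper bins. *Abca4* was at 94.5, 129, 167, 205, 260 and 292 CPM over these bins, and *Btg1* at 407, 464, 605, 740, 885 and 1029 CPM. Both were thus already higher in the cells with 1 or 2 *Fabp7* UMIs, which belong to neither group. *Slc17a6* went the other way, at 155, 122, 73.5, 60.0, 23.3 and 4.85 CPM, and *Elavl2* was at 205, 171, 129, 77.4, 32.9 and 12.1 CPM. *Otx2* stayed between 1400 and 1556 CPM in all 6 bins. *Ccnd1* did not fall evenly, at 108, 48.5, 33.3, 8.69, 42.4 and 8.48 CPM.

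**Figure D4:**
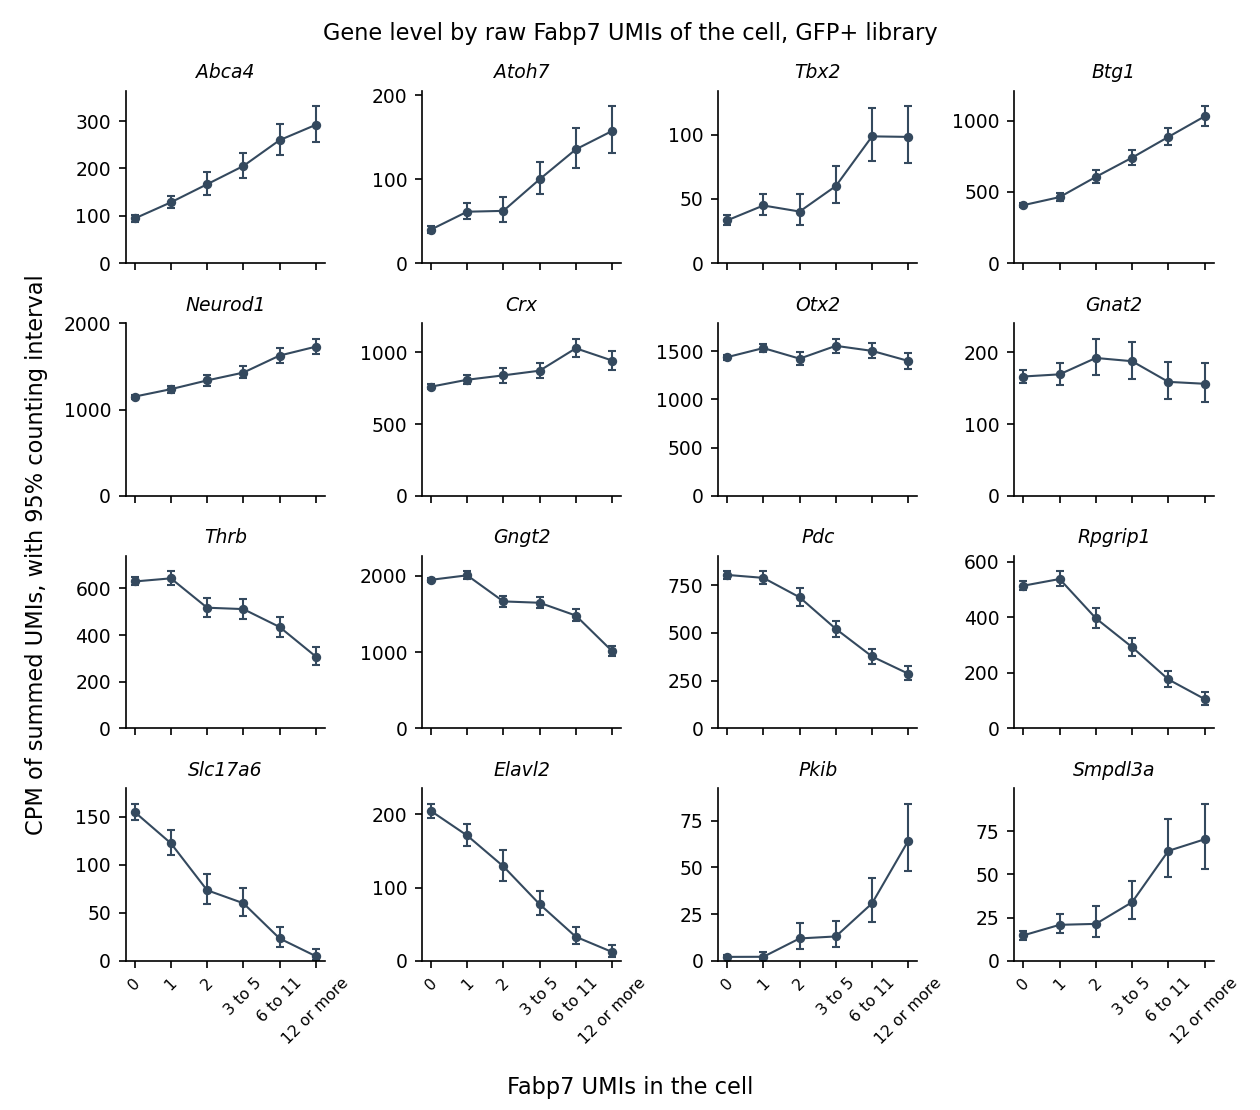
CPM of 16 genes (vertical axes, each from 0) in GFP+ cells binned by raw *Fabp7* UMIs, with 95% counting intervals. *Abca4*, *Atoh7*, *Btg1*, *Neurod1*, *Pkib* and *Smpdl3a* are highest in the upper bins, *Thrb*, *Gngt2*, *Pdc*, *Rpgrip1*, *Slc17a6* and *Elavl2* are lowest there, and *Otx2* and *Gnat2* are nearly level.

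Of the 12 cone markers 9 were tested, and 1 of them, *Pdc*, passed 1.5-fold, downward, where 5.46% of all genes were lower and 2.19% higher. Their median log2 ratio was -0.33, beside -0.10 for all genes, and their summed level 5695 against 6776 CPM. With depth-weighted comparison cells the median was -0.06, and at like depth -0.18 beside -0.07 for all genes. The ratio of the summed level was 0.841 over all cells and 0.899 (0.876 to 0.922) at like depth. *Pdc*, phosducin, which binds the transducin beta-gamma subunits, was at 408 CPM (385 to 431) against 804 CPM (785 to 823). Its ratio was 0.507 (0.477 to 0.540), and 0.616 (0.564 to 0.673) at like depth. *Thrb*, the thyroid hormone receptor that directs cone opsin choice, was at 429 against 630 CPM (0.681, 0.640 to 0.724), with a thinned UMI in 66.6% (62.5 to 70.6%) and 81.3% (79.4 to 83.0%) of the cells. *Gngt2*, the gamma subunit of cone transducin, was at 1414 against 1948 CPM (0.726, 0.701 to 0.751). At like depth *Thrb* was at 0.699 (0.637 to 0.767) and *Gngt2* at 0.766 (0.729 to 0.805). *Rxrg*, a retinoid receptor of early cones, and *Gnat2*, the alpha subunit of cone transducin, had ratios of 1.12 (1.03 to 1.22) and 1.02 (0.918 to 1.13). At like depth these were 1.26 (1.11 to 1.42) and 1.30 (1.12 to 1.51), so that the interval of *Gnat2* then lay above 1. *Lhx4* itself, whose regulatory sequences drive the sorting reporter, was at 114 against 144 CPM (0.794, 0.701 to 0.897), and at 0.833 (0.692 to 1.0) at like depth, where the interval reached 1.

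Of 20 photoreceptor fate regulators 17 were tested, 1 (*Tbx2*) passed 1.5-fold upward and none downward, and the median log2 ratio was 0.18, with a share past 1.5-fold near that of all genes. *Crx*, the homeobox factor that turns on photoreceptor genes, was at 944 CPM (909 to 979) against 761 CPM (743 to 780), a ratio of 1.24 (1.19 to 1.30). *Neurod1* was at 1577 against 1150 CPM (1.37, 1.32 to 1.42) and *Neurod4* at 599 against 437 CPM (1.37, 1.29 to 1.45). *Otx2*, upstream of *Crx*, had a ratio of 1.04 (1.0 to 1.08). The rod determinant *Nrl* was at 32.5 against 30.6 CPM (1.06, 0.831 to 1.35), with a thinned UMI in 8.44% (6.25 to 11.1%) of Fabp7-high and 8.64% (7.4 to 10.0%) of comparison cells, and in 0 of 2208 thinned progenitors (upper bound 0.167%). At like depth the median of this list was 0.32.

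The list of phototransduction and outer segment genes did not include *Abca4*. Of its 42 genes 41 were in the files and 18 were tested, and 8 were at least 1.5-fold lower and 1 higher (median log2 ratio -0.52), beside 5.46% lower and 2.19% higher over all genes. The lower genes were *Pdc*, *Pde6c*, *Aipl1*, *Rpgrip1*, *Rd3*, *Impg2*, *Pcp4* and *Nxnl2*. *Rpgrip1*, a scaffold of the connecting cilium, was at 202 CPM (186 to 219) against 513 CPM (498 to 528), a ratio of 0.393 (0.360 to 0.429), and 0.422 (0.366 to 0.484) at like depth. *Aipl1*, the chaperone of the photoreceptor phosphodiesterase, was at 8.57 against 37.6 CPM (0.228, 0.145 to 0.342), and *Rd3*, which acts in guanylate cyclase trafficking, at 12.3 against 43.3 CPM (0.285, 0.197 to 0.402). *Rom1*, of the disc rim, was the gene that was higher, at 41.1 against 17.1 CPM (2.41, 1.88 to 3.09). *Unc119*, a lipid-binding carrier of transducin, was at 1023 against 819 CPM (1.25, 1.20 to 1.30). At like depth 4 of 16 tested genes were lower and 1 higher, with a median of -0.32, and with depth-weighted comparison cells the median was -0.16. The size of the group difference therefore depended on how depth was matched, while *Rpgrip1*, *Aipl1* and *Rd3* kept intervals below 1 at like depth.

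Genes of cell cycle exit and newborn neurons held several 1.5-fold higher genes. Of 28 genes 21 were tested, 7 were at least 1.5-fold higher and 3 lower (median log2 ratio 0.27), where 2.19% of all genes were higher and 5.46% lower. The higher genes were *Atoh7*, *Dll3*, *Gadd45a*, *Gadd45g*, *Rgs16*, *Tubb3* and *Stmn2*. *Dll3*, an inhibitory Notch ligand of newborn neurons, was at 243 against 136 CPM (1.79, 1.63 to 1.97), and *Gadd45a*, a growth arrest gene, at 154 against 81.5 CPM (1.88, 1.67 to 2.12). *Stmn2*, a microtubule regulator of growing neurites, was at 508 against 270 CPM (1.88, 1.76 to 2.01). The lower genes were *Elavl2*, *Elavl4* and *Cdkn1c*, the last an inhibitor of the cell cycle at 257 against 475 CPM (0.541, 0.50 to 0.585). At like depth 4 of 20 were higher and 3 lower, and *Tubb3* (1.19), *Gadd45g* (1.23) and *Rgs16* (1.35) were then under 1.5-fold.

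Over all cells, those members of the lists of lipid binding and metabolism that passed 1.5-fold were lower, beside 5.46% lower and 2.19% higher over all genes. This does not hold for every lipid gene, since *Smpdl3a*, a sphingomyelinase-like gene outside these lists, was higher (3.65, 2.87 to 4.65). Among the other fatty acid and retinoid binding proteins none of 10 tested was 1.5-fold higher and 2 were lower (median log2 ratio -0.23). Among the lower was *Rbp4*, the plasma retinol carrier, at 190 against 378 CPM (0.504, 0.460 to 0.552). *Fabp5*, the other abundant fatty acid-binding protein of neural tissue, was at 353 against 323 CPM (1.09, 1.02 to 1.17). Of 26 genes of fatty acid uptake, synthesis and oxidation 4 were lower (*Acsl3*, *Elovl2*, *Elovl6* and *Acadvl*) and none higher, with a median log2 ratio of -0.21. *Elovl2*, an elongase of long polyunsaturated chains, was at 35.3 against 78.8 CPM (0.448, 0.360 to 0.552), and 0.483 (0.348 to 0.660) at like depth. Of 17 cholesterol synthesis genes 1 was lower (*Msmo1*) and none higher (median -0.28). None of 5 tested PPAR and RXR receptors and PPAR targets passed 1.5-fold in either direction. At like depth 1 of 8 binding proteins was higher and 1 lower, 1 of 25 fatty acid genes was higher and 4 lower, 2 of 17 cholesterol genes were lower, and 1 of 5 PPAR and RXR genes was lower.

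Of the genes reported to act upstream of *Fabp7*, 6 of 19 were tested. Of these 2 were 1.5-fold lower and none higher, beside 5.46% lower and 2.19% higher over all genes. *Nfib*, a nuclear factor I gene, was lower at 129 against 228 CPM (0.565, 0.505 to 0.631), and so was *Reln*, the secreted ligand reelin, at 61.0 against 102 CPM (0.596, 0.505 to 0.701). *Pax6* was at 217 against 179 CPM (1.21, 1.1 to 1.33) and *Rbpj*, the Notch effector, at 71.3 against 72.7 CPM (0.980, 0.834 to 1.15). *Notch1*, below the expression limit, was at 24.7 against 13.8 CPM (1.79, 1.31 to 2.42).

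Glycolysis and lactate genes were at 6990 against 5466 CPM in sum, and 3 of 15 tested were 1.5-fold higher and 1 lower (median log2 ratio 0.19), against 2.19 and 5.46% of all genes. At like depth 4 of 15 were higher and 1 lower. The higher were *Pkm*, pyruvate kinase, at 1907 against 1092 CPM (1.75, 1.69 to 1.81), *Aldoa*, aldolase, at 529 against 302 CPM (1.75, 1.64 to 1.87), and *Pgk1*, phosphoglycerate kinase, at 71.3 against 39.7 CPM (1.79, 1.5 to 2.14). *Slc2a1*, the glucose transporter GLUT1, was the lower one at 40.4 against 67.8 CPM (0.596, 0.485 to 0.728). All 4 had an interval on the same side of 1 at like depth. ATF4 targets were lower, with 11 of 20 tested past 1.5-fold downward, 1 (*Ddit4*) upward and a median of -0.63, and 14 of 20 downward at like depth. Over all genes 5.46% were lower and 2.19% higher. *Asns*, asparagine synthetase, was at 18.2 against 57.5 CPM (0.316, 0.233 to 0.420). The stress genes of the selection are themselves ATF4 targets, and a limit of 1 raw UMI is stricter for deeper cells such as the Fabp7-high ones. The part of the selection in the lower ATF4 list was not tested. None of 13 immediate early and heat shock genes, which follow handling of tissue, passed 1.5-fold in either direction (median 0.05, and -0.20 at like depth).

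Genes of retinal position were few. The counts in this paragraph stand beside 2.19% higher and 5.46% lower over all genes. *Tbx2*, given above, was the 1 of 3 tested dorsal genes that was higher, while *Efnb1* (1.08, 0.885 to 1.31) and *Nr2f2* (0.977, 0.763 to 1.24) had intervals that held 1. At like depth 2 of 4 tested dorsal genes were higher. The ratio of the summed dorsal level was then 1.55 (1.35 to 1.78), against 1.29 (1.18 to 1.42) over all cells. *Vax2*, a ventral homeobox gene, was the 1 of 3 tested ventral genes that was lower, with a ratio of 0.528 (0.398 to 0.691), and 0.545 (0.366 to 0.792) at like depth. Of 9 thyroid hormone pathway genes 1 was lower (*Slc7a5*), also a member of the ATF4 list, and 3 of 9 were lower at like depth. Of 24 axon, synapse and neuronal differentiation genes 3 were higher (*Map2* and *Tubb3* among them) and 3 lower (*Syt1*, *Stx3* and *Nrxn3*), with a median of -0.11, and at like depth 1 of 23 was higher and 4 lower.

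Markers of other cell types were measured in both groups, and their part in the results was not tested. Radial and Müller glia markers, the cells in which FABP7 is best known, were at 528 against 564 CPM in the Fabp7-high and comparison cells, led by *Apoe*. Of 5 tested glial genes *Vim*, an intermediate filament that progenitors share, was higher at 127 against 65.6 CPM (1.93, 1.69 to 2.21), where 2.19% of all genes were higher. The median log2 ratio of the list was -0.15, or 0.38 at like depth. The glial genes *Rlbp1*, *Gfap*, *Aqp4* and *Kcnj10* were at 0 in the Fabp7-high cells, where 3 UMIs would be 1.03 CPM. Thinned UMIs of *Slc1a3*, *Sox9*, *Glul* and *Vim* were found in 2.75, 1.83, 24.2 and 26.2% of Fabp7-high cells, beside 4.94, 2.58, 24.9 and 13.0% of comparison cells and 31.2, 23.9, 45.6 and 56.3% of the progenitors. Progenitor markers were at 466 against 742 CPM, led by *Pax6*, and 5 of 8 tested (*Sfrp2*, *Fgf15*, *Ccnd1*, *Id3* and *Dapl1*) were lower (median -1.27), beside 5.46% of all genes. In cells with no UMI of 6 cycling genes the median of that list was 0.35 and at like depth 0.41 over 4 tested genes, so its direction turned.

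Ganglion cell markers were at 484 against 646 CPM, led by *Ebf1*, a transcription factor at 159 against 339 CPM (0.469, 0.425 to 0.518), with *Shh* at 0 in the Fabp7-high cells. Of 5 tested, *Ebf1* was the 1 lower and *Elavl3*, given above, the 1 higher, and the median log2 ratio was -0.01. The counts in this paragraph stand beside 2.19% higher and 5.46% lower over all genes. Amacrine and horizontal cell markers were at 1719 against 1226 CPM, led by *Meis2* at 1159 against 769 CPM (1.51, 1.44 to 1.57), with *Slc32a1* and *Calb1* at 0. Of 4 tested, *Meis2* was the 1 higher, none was lower and 3 were within 1.5-fold. The rest of the 13 genes lay below the expression limit, so the sum says little about them. Rod and bipolar markers were at 128 against 214 CPM, led by *Pcp2*, with *Gnat1*, *Cnga1*, *Vsx1* and *Trpm1* at 0. Of 3 tested 2 were lower, and 1 of 3 at like depth. Markers of blood, immune, vessel, pigment epithelium and lens cells were at 35.3 against 51.2 CPM, led by *C1qa*, with 14 of 20 at 0. Of 7 tested S and G2M phase genes 1 was lower (*Tyms*), with *Ccnb2* at 0 and a median of -0.28, which was 0.25 at like depth.

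The genes on either side of *Fabp7* were chosen after their values were seen. *Pkib*, an inhibitor of protein kinase A, lies before it on chromosome 10 (57631981 to 57741112), and *Smpdl3a*, a sphingomyelinase-like phosphodiesterase, lies after it (57794335 to 57811830), all 3 on the plus strand. *Pkib* had 97 UMIs (33.2 CPM) in the Fabp7-high and 18 UMIs (2.1 CPM) in the comparison cells, a ratio of 15.8 (9.49 to 27.8), the highest of 8438 genes with a mean of at least 10 CPM. *Smpdl3a* was at 53.8 against 14.7 CPM, a ratio of 3.65 (2.87 to 4.65), the 5th highest. At like depth the ratios were 12.7 (5.31 to 36.8) and 3.02 (2.07 to 4.44). Over the *Fabp7* bins *Pkib* was at 2.1, 2.15, 12.0, 13.0, 30.7 and 64.2 CPM, and *Smpdl3a* at 14.7, 20.8, 21.4, 33.9, 63.6 and 70.3 CPM. Of the next genes, *Serinc1* and *Hsf2*, before *Pkib*, had ratios of 1.16 (1.07 to 1.26) and 1.44 (1.20 to 1.71), and *Gcc2*, the nearest gene after *Smpdl3a* with 10 or more UMIs, 0.928 (0.777 to 1.1). No 31-base stretch of the *Fabp7* or *Smpdl3a* transcripts occurs in another gene, and 4.29% of those of *Pkib* do.

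**Figure D5:**
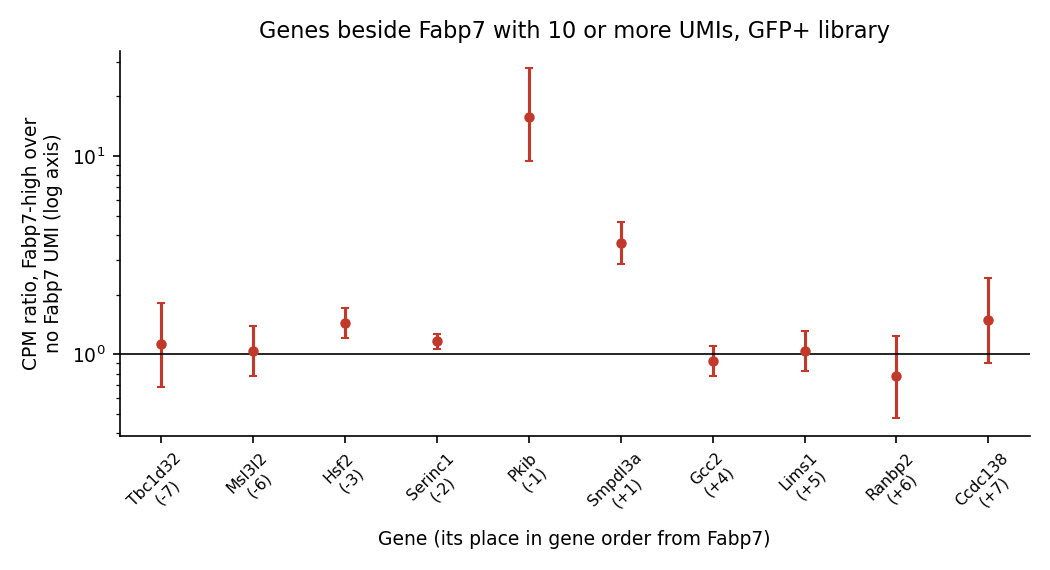
Ratio of CPM in Fabp7-high cells to CPM in cells with no *Fabp7* UMI (log axis), with 95% counting interval, for the genes around *Fabp7* that had 10 or more UMIs, in gene order and with the place counted from *Fabp7*. *Pkib* at 15.8 and *Smpdl3a* at 3.65, on either side of *Fabp7*, stand apart from the others, which lie from 0.782 to 1.49.

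The GFP− library, which the selection did not use, held 131 cells with at least 2 *Crx* UMIs within the same stress and mitochondrial limits. Of these, 49 were Fabp7-high (37.4%, 29.1 to 46.3%), against 499 of 2802 such GFP+ cells (17.8%, 16.4 to 19.3%). Thinned to 3000 UMIs the shares were 23.1% (14.9 to 33.1%, 91 cells) and 13.1% (11.7 to 14.6%, 2212 cells), with 20 and 338 cells left out. The 49 were compared with the 45 *Crx*-positive GFP− cells that had no *Fabp7* UMI. These groups differed in kind, since 65.3% (50.4 to 78.3%) of the former and 28.9% (16.4 to 44.3%) of the latter had 4 or more cone markers, and 20.4% (10.2 to 34.3%) and 51.1% (35.8 to 66.3%) a UMI of a cycling gene. The summed S and G2M phase genes went the other way, at 1711 against 1082 CPM (1.58, 1.38 to 1.82). Among them *Top2a*, a topoisomerase of dividing cells, was at 33 against 4 UMIs (8.30, 2.95 to 32.3). *Mki67*, another gene of dividing cells, was at 3 against 5 UMIs, with a wide interval (0.604, 0.0938 to 3.10). Just 10 of the 49 Fabp7-high cells had a UMI of a cycling gene. The counting interval does not cover UMIs clumped in few cells, and the part of such cells in the higher sum was not tested.

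*Abca4* was higher in the *Fabp7*-high GFP− cells as well, at 140 against 48.6 CPM (2.89, 1.57 to 5.59), and so were *Tbx2* (6.44, 2.49 to 21.2), *Btg1* (2.01, 1.60 to 2.55) and *A830036E02Rik* (6.04, 1.76 to 32.0). Of the 12 highest genes of the GFP+ comparison 6 lay on the same side of 1, and of the 12 lowest 11 did, with *Abhd14b* on the other side. Intervals clear of 1 were fewer, with 4 of the 12 highest on the same side and 3 on the other, and 3 of the 12 lowest on the same side. Of 3106 genes that passed the expression limits in both libraries, 49.6% lay above and 50.4% below 1 in the GFP− cells, and just 2 of the 12 lowest genes reached a mean of 50 CPM there. *Elavl2* had 1 UMI against 13 (0.0774, 0.00182 to 0.516) and *Elavl4* was at 26.1 against 97.1 CPM (0.268, 0.106 to 0.599). *Smpdl3a* had 23 UMIs against 1 (23.2, 3.76 to 954). *Pkib* was at 235 against 142 CPM (1.65, 1.12 to 2.45), so that here it was also abundant in cells with no *Fabp7* UMI. *Hsf2* (2.52, 1.06 to 6.61) and *Gcc2* (2.32, 1.06 to 5.45) had higher ratios than *Pkib* in these cells.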

How the data were processed

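The authors deposited raw UMI count matrices, 1 for each sort gate, made with Cell Ranger 2.1.1 per the submitters' notes on the mm10 reference, for barcodes called as cells. Those counts were used as deposited, with library totals of 16010591 (GFP+) and 46778924 (GFP−) UMIs. The members and gene lists were chosen with earlier results of these data known. Each group was pooled to 1 summed profile in CPM, and genes with a mean of at least 20 CPM over both groups were compared, without the genes of the selection. A gene was called at a 1.5-fold ratio with a pseudocount of 0.5 UMI. Ratios carry exact conditional Poisson intervals and shares Clopper-Pearson intervals, and no p-value was computed, since each gate is 1 library. Named genes were the 12 highest and 12 lowest ratios at a mean of at least 50 CPM, and members of 23 lists. Genes beside *Fabp7*, and those under the closing observations, were added after their values were seen.

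Scrublet, run through scanpy 1.11.5, called 3 of 3728 GFP+ cells (0.0805%), too few for the caller to have worked, so doublets were left in and could not be weighed. In the GFP− library it called 55 of 4445 cells (1.24%), which were left in too. Among these were 2 of the 49 *Crx*-positive Fabp7-high cells and 0 of the 45 cells compared with them. Cells were thinned without replacement to 3000 UMIs for shares. Alternatives changed the *Fabp7*, stress, mitochondrial, gene-number, doublet, cone-marker and cell-cycle limits, the depth matching, the comparison cells, the scaling (TMM in edgeR 4.0.16 with R 4.3.3), the expression limit and the pseudocount. The ratio script was tested on simulated counts. Python 3.11.15, numpy 2.4.6, pandas 2.3.3, scipy 1.17.1 and matplotlib 3.10.9 were used. Some genes are not reported here by name, though they remain in the counts of their lists.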

Additional observations from a re-analysis of the deposited data

Results flagged for a closer look

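Some genes and lists differed in direction between the Fabp7-high cells of the GFP+ library and those among the *Crx*-positive GFP− cells, each against cells of the same library with no *Fabp7* UMI and each with a counting interval clear of 1. These differences between libraries were not tested, and the GFP− groups held 49 and 45 cells. They were found for 34 of 465 named and listed genes, of which the 16 described in the text are given here, and for 7 of 23 lists.

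Genes of newborn neurons were among those higher in the GFP+ and lower in the GFP− library. *Atoh7* had a ratio of 3.19 in the GFP+ and 0.671 (0.489 to 0.917) in the GFP− library, *Elavl3* 2.53 and 0.540 (0.395 to 0.732), and *Gadd45a* 1.88 and 0.209 (0.163 to 0.264). *Rgs16* had 1.92 and 0.440, *Tubb3* 1.5 and 0.510, and *Stmn2* 1.88 and 0.772. The same direction was seen for *Ppp1r14a* at 2.12 and 0.473 (0.327 to 0.676), *Notch1* at 1.79 and 0.447, *Pax6* at 1.21 and 0.668, and *Fabp5* at 1.09 and 0.707. The opposite was seen for the cone genes *Thrb* at 0.681 and 1.82 (1.20 to 2.80) and *Pdc* at 0.507 and 2.01 (1.27 to 3.26), for *Rbp4* at 0.504 and 3.20 and *Nfib* at 0.565 and 3.22, and for the progenitor and cycling genes *Sfrp2* at 0.287 and 2.42 and *Top2a* at 0.127 and 8.30. At like depth the GFP+ ratio of *Sfrp2* turned to 1.35 (0.860 to 2.09). That of *Top2a* was 0.515 (0.0532 to 2.58), and both intervals held 1.

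Among lists, the summed level of the cone markers had a ratio of 0.841 in the GFP+ and 1.37 (1.24 to 1.52) in the GFP− library, that of phototransduction and outer segment genes 0.735 and 1.28 (1.12 to 1.45), and that of thyroid hormone pathway genes 0.788 and 1.49 (1.22 to 1.82). S and G2M phase genes had 0.752 and 1.58 (1.38 to 1.82), and glia markers 0.936 and 1.48 (1.23 to 1.78). At like depth the GFP+ ratio was 1.04 (0.963 to 1.13) for S and G2M phase genes, an interval that held 1. For glia markers it was 1.14 (1.04 to 1.25), the same direction as in the GFP− library. Newborn neuron genes had 1.20 and 0.713 (0.681 to 0.747), and axon, synapse and neuronal differentiation genes 1.07 and 0.834 (0.797 to 0.873). In the GFP− library 65.3% of the Fabp7-high and 28.9% of the comparison cells had 4 or more cone markers. A UMI of a cycling gene was found in 20.4 and 51.1% of them, while the S and G2M sum was higher in the Fabp7-high cells. The counting interval of that sum does not cover UMIs clumped in few cells. The part of these group differences in the results was not tested.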

How the results depend on the processing

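The 26 named genes (12 highest, 12 lowest, *Pkib* and *Smpdl3a*) were recomputed under 19 alternatives, of which the pair that join a limit of 4 cone markers with matched depth were chosen after seeing the data. None of the 494 values changed direction. Of these values 77 moved beyond the counting interval of the reported value, most often with depth-weighted comparison cells or another *Fabp7* threshold. The genes that no longer reached 1.5-fold were *Elavl3*, whose log2 ratio of 1.34 was 0.58 with depth-weighted comparison cells, and *Ccnd1*, whose -2.46 was -0.27 in cells of like depth. *Atoh7* went from 1.67 to 0.89 with 4 cone markers and depth weighting, *Abhd14b* from -1.37 to -0.72 with depth weighting, *Pkib* from 3.95 to 3.00 with depth weighting, *Stx3* from -2.08 to -1.32 with 2 UMIs of *Fabp7*, and *Elavl2* ranged from -3.12 to -1.57, *Slc17a6* from -3.23 to -1.80 and *Pcdh15* from -2.49 to -1.38. Among list medians the progenitor markers turned from -1.27 to 0.35 in cells with no UMI of 6 cycling genes and to 0.41 at like depth, and the cause was not tested. Of 435 list medians 114 moved by 0.1 or more on the log2 scale, and a median past 1.5-fold changed sign in the progenitor list only. Medians under 1.5-fold also crossed 0, those of amacrine and horizontal cell markers from 0.36 to -0.33 with a limit of 10 UMIs, of ganglion cell markers from -0.01 to 0.50 with 4 cone markers and depth weighting, of PPAR and RXR genes from -0.21 to 0.12 with 10 CPM, of fatty acid and retinoid binding proteins from -0.23 to 0.05 with 4 cone markers, and of upstream regulators from -0.09 to 0.02 with thinned selection. The ganglion cell median was -1.01 with a limit of 10 UMIs. Those of glia, S and G2M and heat shock genes turned at like depth, as given above. With a *Fabp7* threshold of 2 UMIs, 224 genes were lower and 21.9% of GFP+ cells were Fabp7-high, and with 5 UMIs 543 and 9.74%. The share was 11.9% when cells were selected on thinned counts and 22% at like depth. TMM scaling moved the median log2 ratio of all genes from -0.10 to 0.0122. An expression limit of 10 CPM gave 213 higher and 627 lower genes, 50 CPM gave 67 and 117, and 10 UMIs gave 808 and 1947, as fewer or more genes were compared. No paired analysis was possible because each gate is 1 library and no result comes from a test.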

Other observations

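The following genes were chosen after their values were seen. *Chst2*, a sulfotransferase, had the highest ratio of the 6298 genes compared, at 42.1 CPM in the Fabp7-high and 4.21 CPM in the comparison cells (10.0, 6.86 to 15), and 9.38 (4.49 to 21.9) at like depth. *Angpt1*, the vascular growth factor angiopoietin-1, had the next highest, at 35.6 against 5.14 CPM (6.93, 4.83 to 10.1). *Nnat*, the imprinted gene neuronatin, was at 4001 against 9324 CPM (0.429, 0.421 to 0.438), and 0.435 at like depth. In the GFP− cells its ratio was 0.735 (0.646 to 0.835). *Tmsb10*, an actin-binding thymosin, was at 4129 against 2136 CPM (1.93, 1.89 to 1.98) in the GFP+ library but had a ratio of 0.793 (0.742 to 0.846) among the GFP− cells.

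*Pkib* was less abundant in the GFP+ than in the GFP− library as a whole, at 8.68 against 26.4 CPM, whereas *Fabp7* was at 445 against 23.0 CPM and *Smpdl3a* at 23.7 against 3.72 CPM.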
